A study of Mus musculus with 10 samples.

Results

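The sites described here are HEB binding sites that were listed after knockdown of Id4 and had no counterpart with a non-targeting siRNA. HEB is the protein of the gene Tcf12. A site was taken when its peak summit, the single base of highest enrichment, was in the siID4 list and the siNT list had no summit within 1000 bp. Scaffolds, chromosomes Y, 5 and 15, and several crowded or repeated regions were left out by the rule; these included the start of chromosome 9 and chromosome 11 beyond 110 Mb. Of 1489 siID4 summits, 626 lay outside those regions, and 455 of them met the rule, which is 72.7% of the 626. Of 560 siNT summits, 263 lay outside those regions, and 98 of them (37.3%) had no siID4 summit within 1000 bp. The sites were chosen by the calls of both lists, present in one and absent from the other, so these percentages are descriptions and carry no test.

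The cells were Comma-Dβ, a mouse mammary epithelial line, at passage 28. A pool of siRNAs against mouse Id4 (siID4) was transfected at 20 nM, with a non-targeting control pool (siNT) at the same dose in the other arm, and chromatin was taken after 48 h. The labels list 3 HEB immunoprecipitation libraries per siRNA and 4 input libraries, labelled with no siRNA, that served both arms. The deposited files are 1 list of summits per siRNA, so no value here has an error between libraries, and the depth behind each site is unknown. The lists hold no measure of Id4 itself, and a transfected line at 1 passage is the only material.

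E-proteins such as HEB carry a basic region that touches DNA and a helix-loop-helix through which they pair. The pairs bind E-boxes, short sites of the form CANNTG. ID proteins, of which ID4 is one, have the helix-loop-helix without the basic region, and a pair of an E-protein with an ID protein does not bind DNA. In the mammary gland, ID4 is known as a protein of basal epithelial cells.

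Of the 455 sites, 1 lay in one of the 32851 RefSeq promoter windows used here (250 bases before to 50 after a transcription start). It stood 119 bases before a start of Adcy7, the gene of an adenylyl cyclase that makes cyclic AMP. The start is an internal one, since the gene body begins 10683 bp from the summit. A further pair of sites lay within 250 bp of a start, both downstream of it: 164 bases past the start of Gm31378, a long non-coding RNA gene, and 146 bases past a start of Gm13212, a protein-coding gene. The table lacks some starts, so these counts can miss sites. A site 73 bp upstream of the body of S100a5 was not counted, because its nearest start in the table lies inside that body. The sequences next to the 3 starts of Adcy7, Gm31378 and Gm13212 are shown because no other start in the table had an siID4-only site within 250 bp. They are from RefSeq, build GRCm38.p6 (the assembly behind mm10), 5′ to 3′ on the strand of the gene, with each E-box CANNTG in capitals. The first is the 201 bases around the Adcy7 summit at chr8:88282773-88282973 on the plus strand, with the summit as the middle base. The second is the 200 bases before the Gm31378 start at chr10:38122269-38122468 on the minus strand. The third is the 200 bases before the Gm13212 start at chr4:145585000-145585199 on the plus strand.
Adcy7: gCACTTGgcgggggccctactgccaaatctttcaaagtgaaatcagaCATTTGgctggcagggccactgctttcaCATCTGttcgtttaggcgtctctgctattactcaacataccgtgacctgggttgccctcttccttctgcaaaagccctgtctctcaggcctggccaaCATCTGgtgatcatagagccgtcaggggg
Gm31378: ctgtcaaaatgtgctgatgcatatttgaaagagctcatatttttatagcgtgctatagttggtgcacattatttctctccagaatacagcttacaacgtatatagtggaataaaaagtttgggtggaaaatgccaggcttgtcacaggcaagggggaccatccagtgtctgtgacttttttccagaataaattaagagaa
Gm13212: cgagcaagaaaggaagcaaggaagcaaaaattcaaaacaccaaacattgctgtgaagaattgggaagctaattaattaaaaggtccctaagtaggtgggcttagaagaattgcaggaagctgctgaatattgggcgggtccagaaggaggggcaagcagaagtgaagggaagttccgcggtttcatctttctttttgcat

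The Adcy7 stretch held 4 E-boxes. CACTTG began 99 bases before the summit, CATTTG 53 before and CATCTG 25 before, and a second CATCTG began 72 bases after it. At the same offset from a start and over the same 201 bases, 58.7% of all promoter windows held at least 1 CANNTG, with a median of 1. CAGATG, read on both strands and so also as CATCTG, was in 11.8% of them. The forms CAGCTG (10.7% of windows) and CAGGTG with its complement CACCTG (14.1%) were not among these letters. The stretches at Gm31378 and Gm13212 held no CANNTG, against 58.2% of windows over the same 200 bases; their summits lie outside the letters shown. A match is a description of the letters and not a measured contact. The Adcy7 summit scored 7.59 and stood at rank 381 of the 1489 siID4 summits, Gm31378 scored 8.10 (rank 350) and Gm13212 scored 5.10 (rank 615).

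Scores were low at most of these sites. The score of a summit comes from the authors' lists. It is read here as −log10 of a q-value, a unit that no label names, and ranks a site within its own list only. The 455 sites had a median score of 3.93, with an interquartile range of 2.48 to 6.70 and extremes of 1.34 and 62.1. The 153 siID4 summits outside the excluded regions that had an siNT summit within 200 bp, called shared here, had a median of 14.3 and a range from 1.31 to 178. A score of 5 or more was reached by 174 siID4-only sites (38.2%) and by 136 shared sites (88.9%), and a score of 10 or more by 48 (10.5%) and 104 (68.0%). The 98 siNT summits with no siID4 summit within 1000 bp are called siNT-only here. In their own list they had a median score of 3.65, with an interquartile range of 2.57 to 5.99. Of them, 33.7% scored 5 or more and 8.16% scored 10 or more. Low scores were thus not particular to the siID4-only sites. The rule rests on the same peak calls as the scores, so these values describe the sites and carry no test.

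The share of siID4 summits that were siID4-only was lower in each higher quartile of the score. It was 96.2% of 157 summits in the lowest quartile (exact binomial 95% interval 91.9 to 98.6, counting error only). The next quartiles gave 89.1% (83.1 to 93.5) and 75% (67.4 to 81.6), and the highest gave 30.6% of 157 (23.5 to 38.4). Scores were also coarse. The 455 sites took 212 distinct values, 292 sites had a score that another of the 455 also had, and 23 sites had the same score of 2.48. Summits with tied scores were split between the lowest and next quartile at 2.81, and between the middle quartiles at 5.21.

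**Figure D1:**
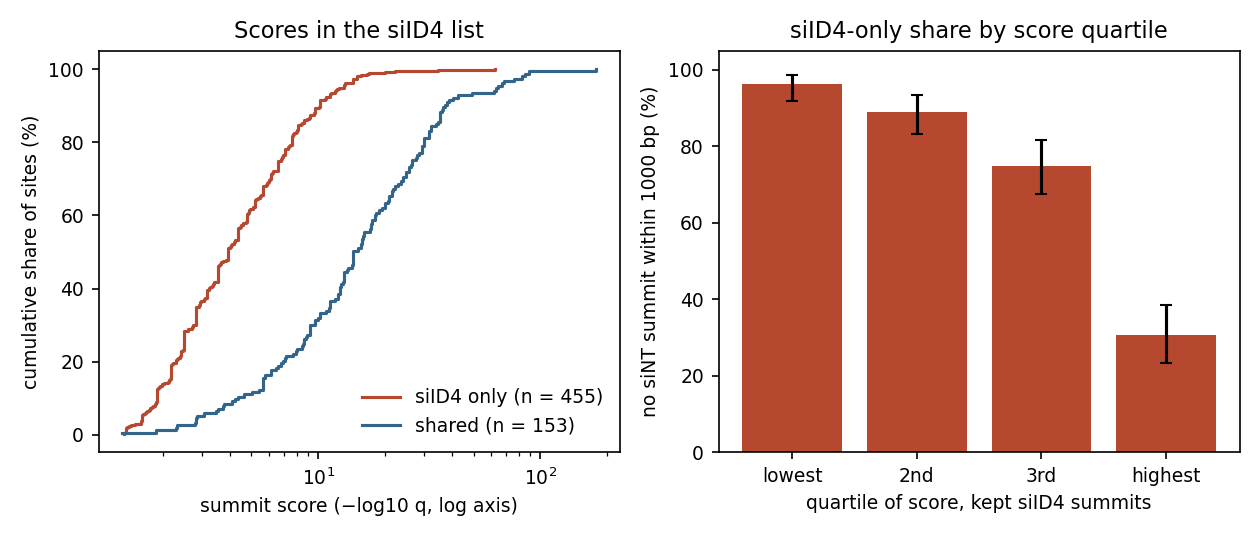
Left, cumulative share of sites (%) against summit score (−log10 q, log axis) for the 455 siID4-only and the 153 shared sites of the siID4 list; the siID4-only curve lies to the left, with a median of 3.93 against 14.3. Right, share of siID4 summits with no siNT summit within 1000 bp in each score quartile, with exact binomial 95% intervals; it goes from 96.2% in the lowest to 30.6% in the highest quartile.

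Few of the sites were near misses of the 1000 bp limit. The nearest siNT summit lay within 10000 bp of 34 sites (7.47%), within 100000 bp of 95 (20.9%) and within 1 Mb of 204 (44.8%), and the median distance was 1.43 Mb. Only 18 siID4 summits lay between the shared and the siID4-only definitions. Just outside the rule were summits inside 9530057J20Rik (996 bp from an siNT summit, score 6.43) and Dnah12 (956 bp, 4.72), then 1 far from Scaf8 (876 bp, 4.19), 1 near Gm39469 (874 bp, 12.7) and 1 inside Atg4a (857 bp, 5.60). Just inside it were sites near Olfr214 (1072 bp, score 4.09), inside Duxf3 (1218 bp, 13.2), beside Duxf3 (1412 bp, 34.4), near Hhat (1477 bp, 7.59) and near Vmn2r44 (1624 bp, 2.42). Both Duxf3 sites, although among the 20 highest, therefore have an siNT summit nearby, and a shared summit inside Duxf3 scored 4.21.

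The 20 highest-scoring siID4-only sites named 17 protein-coding genes, taking for each site the nearest gene body within 100000 bp; 1 of the 20 had none. Inside or outside is given for the gene body, since the gene table used here marks no exons or introns. The highest, at chr13:9011795 (score 62.1, rank 29), had Gtpbp4, a gene of ribosome assembly, at 15679 bp and the nearest siNT summit at 12.8 Mb. The next highest of the 455 scored 34.4. The other genes are given by their known roles, a grouping made after the genes were seen.

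Some act in the cytoskeleton or in organelles. Syne3, which encodes nesprin-3 and ties the nuclear envelope to intermediate filaments, contained a site at chr12:104983661 (score 16.9). Camsap2, a microtubule minus-end protein gene, contained one at chr1:136328852 (14.9). Ift140, a gene of the ciliary transport machinery, contained one at chr17:25083571 (20.0). Srgap3, a gene of the Slit-Robo pathway, contained one at chr6:112899887 (14.4). Reep3, an endoplasmic reticulum shaping gene, had a pair of sites 6383 and 5704 bp away (14.9 and 14.3). The nearest siNT summit was 0.660 Mb or more from each of these sites.

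Signalling genes included Nfatc2, which encodes a transcription factor activated by calcineurin, and Sufu, a negative regulator of the Hedgehog pathway. The Nfatc2 site at chr2:168466245 (score 22.1) lay 10165 bp from the gene. A shared summit at chr2:168451982 (17.4), 24428 bp from the same gene, put an siNT summit 14287 bp from it. The Sufu site lay inside the gene at chr19:46422807 (14.9), 4.41 Mb from any siNT summit. Mdga2, a synaptic adhesion regulator gene, contained a site at chr12:67059464 (27.1).

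Genes with other roles included Angptl4, which encodes an inhibitor of lipoprotein lipase, with a site 2165 bp away at chr17:33783740 (score 14.3) and an siNT summit 4249 bp from it. A shared summit inside Angptl4 at chr17:33779497 scored higher (32.3). Csgalnact1, an enzyme gene of chondroitin sulfate synthesis, contained a site at chr8:68626018 (13.7). S100a5, a calcium-binding protein gene, had a site 73 bp upstream of its body at chr3:90606407 (14.7). The rest were sites inside Eefsec, which acts in selenocysteine incorporation (16.6), and Hecw2, a ubiquitin ligase gene (14.3), and outside Cops8, a COP9 signalosome subunit gene (16.3), and Btbd35f6 (13.2).

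Relative to genes, siID4-only sites were seldom at those starts of transcription that the table used here holds. Inside an annotated gene lay 247 of the 455 (54.3%, interval 49.6 to 58.9), against 81 of 153 shared sites (52.9%, 44.7 to 61.1). This difference did not pass a two-sided Fisher's exact test (odds ratio 1.06, 95% interval 0.718 to 1.55, adjusted p = 0.779). Within 1000 bp of an end of any gene lay 38 siID4-only sites (8.35%, 5.98 to 11.3) and 23 shared sites (15.03%, 9.77 to 21.7). The odds ratio was 0.516 (0.287 to 0.942), and Fisher's exact test missed the 0.05 threshold after Benjamini-Hochberg adjustment over 3 location tests (p = 0.0283, adjusted p = 0.0503). With protein-coding genes only it passed, with 9 siID4-only (1.98%) and 13 shared sites (8.50%; Fisher's exact test, adjusted p = 0.00177). Of those 13 shared sites, 4 lay 81 to 151 bp from linker histone genes, and this test was not repeated without them. With ends of any gene and scores of at least 5 in both sets, the difference did not pass (10.9% against 14.0%, Fisher's exact test, adjusted p = 0.486). Sites are not replicates of the treatment, so these tests compare sets of positions in 1 list.

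A start of transcription lay within 250 bp of 3 of 454 siID4-only sites (0.661%, interval 0.136 to 1.92) and of 10 of 151 shared sites (6.62%, 3.22 to 11.8), counting the sites on chromosomes with starts in the table used. The odds ratio was 0.0942 (0.0164 to 0.373; two-sided Fisher's exact test, p = 0.000103), a measure chosen after the data were seen. Linker histone genes held 4 of the 10 shared sites, and without them the shares were 0.661% and 4.08% (Fisher's exact test, p = 0.00844). The next 2 settings kept the linker histone sites. With scores of at least 5 the shares were 1.72% and 7.46% (Fisher's exact test, p = 0.0195), and 4 of the 10 shared sites were at linker histone genes. Among sites with no other of their set within 100000 bp they were 0.885% and 3.91% (Fisher's exact test, p = 0.0387), with 2 of 5 shared sites at those genes. Within 10000 bp of a start lay 19.8% of siID4-only and 30.5% of shared sites, and the median distances were 35757 and 19115 bp. For comparison, siNT-only sites stood within 250 bp in 2 of 98 cases (2.04%) and within 10000 bp in 19.4%, at a median distance of 33059 bp. The table lacks the starts of some genes. Sites inside Adam3 and Prex2 lay 4793 and 148097 bp from a protein-coding gene end, but 707798 and 905447 bp from the nearest start in it. The S100a5 site lay 73 bp upstream of the gene body but was not among the 3 siID4-only sites within 250 bp of a start. The shares and distances for starts therefore depend in part on gaps in the table.

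**Figure D2:**
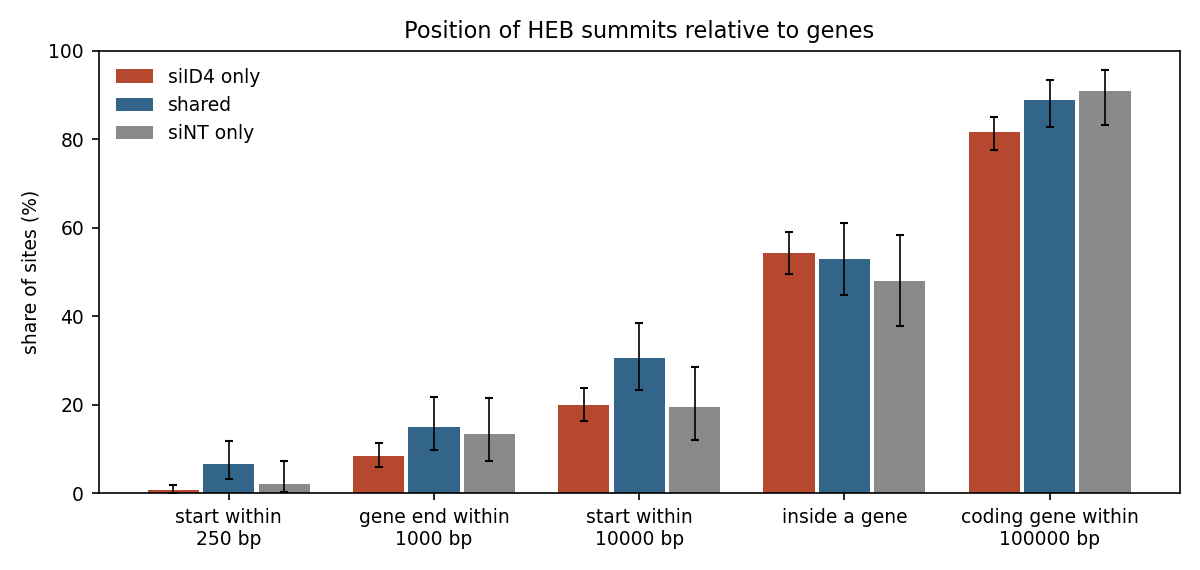
Share of sites (%) in 5 positions relative to genes for siID4-only, shared and siNT-only summits, with exact binomial 95% intervals (counting error only). The siID4-only sites have 0.661% within 250 bp of a start in the table used, against 6.62% of shared sites, and 54.3% against 52.9% inside a gene.

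The 9 siID4-only sites within 1000 bp of a protein-coding gene end were at Duxf3 (score 34.4), S100a5 (14.7), Vasn (11.9), Pate1 (8.62), Cep152 (7.09), Ugt1a1 (6.91), Gm13212 (5.10), Krtap9-5 (4.34) and Aff3 (2.03). Vasn, which encodes the TGF-beta-binding membrane protein vasorin, lies inside Coro7, an actin-related coronin gene, and the site at chr16:4651782 was 616 bp from its end. Cep152 is a centriole duplication gene, with the site 496 bp away at chr2:125549368. The sites at Pate1 and Krtap9-5, a hair keratin-associated protein gene, were 417 and 564 bp past a start. Among all 38 sites near a gene end, the nearest end belonged to a long non-coding RNA gene in 15, a pseudogene in 6, an immunoglobulin V segment in 5 a small nucleolar RNA or microRNA gene in 3 and a protein-coding gene in 9.

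Within 100000 bp of a protein-coding gene lay 371 siID4-only sites (81.5%, interval 77.7 to 84.998) and 136 shared sites (88.9%, 82.8 to 93.4). The odds ratio was 0.553 (0.296 to 0.980), and Fisher's exact test missed the threshold (p = 0.0335, adjusted p = 0.0503). The 371 sites named 329 genes, 1.7% of the 19312 protein-coding genes outside the excluded regions; 295 genes had 1 site, 28 had 2 and 6 had 3 or more. Shared sites named 127 genes, and 30 genes were named by both sets, 9.12% of the siID4-only genes and 23.6% of the shared ones. The 179 genes with an siID4-only site inside had a median length of 95.8 kb, the 52 with a shared site 91.6 kb, and all 19312 genes 17.1 kb. Gene length was not adjusted for.

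The 20 gene lists of pathways and cell types held 405 distinct protein-coding genes outside the excluded regions. Of these, 17 (4.20%) were the nearest gene, within 100000 bp, of an siID4-only site and 10 (2.47%) of a shared site, beside 1.7% and 0.658% of all genes. The lists were drawn up with earlier results of these data known, so these shares are not independent evidence, and 10 lists had no siID4-only site.

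Among 29 helix-loop-helix and ID genes, siID4-only sites named 2, Tcf12 and Id3, beside 1.7% of all genes. Shared sites also named 2, Atoh8 and Id3, beside 0.658% of all genes, and 2 were nearest to a summit of the siNT list. The Tcf12 site lay inside the gene of HEB itself at chr9:71888592, with a score of 6.60, and the siNT summit closest to it was at 14.5 Mb. Id3, an ID family gene, had a site 33075 bp away at chr4:136110747 (score 5.81). A second siID4 summit, shared and 3242 bp from Id3, scored 35.4, so the siID4-only site is the weaker of a pair around that gene. No siID4-only site lay within 5.98 Mb of Id4, the knocked-down gene.

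Extracellular matrix was the list with the most siID4-only genes, 5 of 47, and also the largest list. The contractile list had 2 of 22 and the junction list 2 of 21, beside 1.7% of all genes. The 5 matrix sites had a median score of 5.93, against 3.93 for all sites. Sites lay inside Col18a1, a basement membrane collagen gene (chr10:77130181, score 13.1), Fbln2, a fibulin gene of elastic and basement membrane matrix (chr6:91259957, 5.93), and Col4a2, a network collagen gene (chr8:11411916, 4.34). Col1a2, a fibrillar collagen gene, had a site 47949 bp away (7.09), and Thbs2, a thrombospondin gene, had one 54580 bp away (2.12). Their nearest siNT summits were between 0.158 and 8.50 Mb away. In the same list 1 gene, Col3a1, had a shared site, and 4 genes were nearest to a summit of the siNT list.

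Contractile and junction genes gave 2 genes each. Cnn2, a calponin gene, contained a site at chr10:79990013 (score 12.5), and Actg2, a smooth muscle actin gene, contained one (2.72); none of the 22 contractile genes had a shared site. Tjp1, the gene of the tight junction protein ZO-1, contained a site at chr7:65469771 (9.14), and Ivl, an envelope protein gene of stratified epithelia, had one 9236 bp away (2.48). Of 21 junction and envelope genes none had a shared site. Only 0.658% of all genes were named by a shared site, so finding none in lists this short says little.

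Signalling and cell cycle lists gave 1 or 2 genes each where they gave any. Nog, a BMP antagonist gene, had a site 93530 bp away (score 10.2). Dusp1, a MAP kinase phosphatase gene, had one 22446 bp away (8.32), and Erbb4, an EGF receptor family gene, contained one (1.88). Mcm3, a replication helicase gene, had a site 28361 bp away (2.81). Nfatc2 was the 1 gene of 18 in the calcium list. None of the 29 Wnt, 17 Notch, 18 E-protein partner, 25 adhesion and YAP, 17 basal, 16 luminal or 15 epithelial-mesenchymal transition genes was the nearest gene of an siID4-only site within 100000 bp. Shared sites named 2 of these Wnt genes (Tcf7l1 and Wnt10a) and 1 gene each of the Notch, E-protein partner and adhesion lists. Of all genes, siID4-only sites named 1.7% and shared sites 0.658%. Whether these lists differ between the sets was not tested. Of the markers of other cell types, Vwf, an endothelial gene, contained a site (2.92), and no fibroblast, immune or neuronal marker was named. The lists hold no expression values, so they cannot show which cells were present.

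Some siID4-only sites lay in groups. Another siID4-only site lay within 10000 bp of 42 of them (9.23%, interval 6.73 to 12.3) and within 100000 bp of 115 (25.3%, 21.3 to 29.5). For shared sites the shares were 6.54% and 15.03%, in a smaller set, so the shares are not like for like. Of 327 bins of 1 Mb that held a site, 253 held 1 and 9 held 5 or more, together 51 sites (11.2%).

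Among the bins with 5 or more sites, the shortest span was on chromosome 1 between 88212545 and 88240775, where 7 sites fell in 28.2 kb. Mroh2a, a HEAT repeat gene, contained 5 of them, with scores from 1.88 to 7.69, and Ugt1a1, the gene of the enzyme that conjugates bilirubin, contained 2 (6.91 and 5.24). No shared site lay in that 1 Mb bin, and 1 siNT-only summit did.

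The immunoglobulin heavy chain locus held 14 of the 24 siID4-only sites of chromosome 12. From 113256204 to 116009954 it carries 215 annotated segments that make antibody genes in B cells. The 14 sites scored between 2.28 and 9.54, with a median of 4.80; 3 lay inside a segment and 5 within 1000 bp of an end of one. The locus held 1 shared and 1 siNT-only summit. That is 3.08% of the siID4-only and 0.654% of the shared sites, and the difference was not tested.

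Several groups lay in families of similar genes, where siNT summits were also found. The zinc finger genes on chromosome 4 near Zfp600, Zfp992 and Zfp993 had 7 siID4-only, 2 shared and 1 siNT-only summit in 1 bin, and the next bin (Zfp933, Zfp978, Zfp982 and Zfp984) had 5, 3 and 2. Of the 329 genes named by siID4-only sites, 12 had Zfp names (3.65%), against 1.90% of all genes and 5.51% of the 127 genes named by shared sites. Vomeronasal receptor genes with Vmn names made up 10 (3.04%, against 1.77% of all and 1.57% of shared-site genes), and olfactory receptor genes with Olfr names 4 (1.22%, against 5.70% and 0.787%). These percentages describe the genes and were not tested. Mappability was not analysed here.

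**Figure D3:**
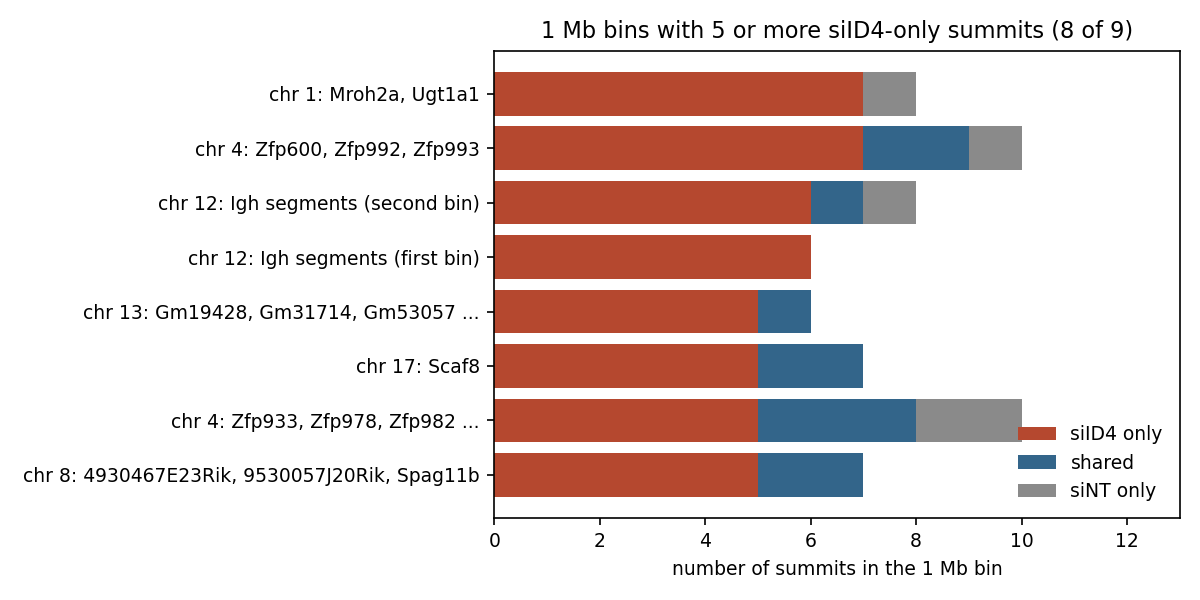
Number of siID4-only, shared and siNT-only summits in 8 of the 9 bins of 1 Mb with 5 or more siID4-only summits. Bins are named by the nearest genes or, on chromosome 12, by the immunoglobulin heavy chain (Igh) segments. The bin of Mroh2a and Ugt1a1 has 7 siID4-only and 0 shared summits, while the zinc finger bin with Zfp600 has 7 and 2.

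By chromosome, the highest counts of siID4-only sites were on chromosomes 1 and 6. Chromosome 1 held 93 (20.4%) against 14 of the shared sites (9.15%) and 10.2% of siNT-only sites, and 6.17% of the protein-coding genes considered. The odds ratio against shared sites was 2.55 (1.39 to 5.01; two-sided Fisher's exact test, p = 0.00131, adjusted p = 0.0236 over 18 chromosomes). Chromosome 6 held 65 (14.3%) against 13 (8.50%), a difference that missed the threshold (Fisher's exact test, adjusted p = 0.313). It also held 12.2% of siNT-only sites and 5.83% of the genes. The comparison by chromosome was chosen after the data were seen. Sites there scored low, with a median of 3.39 on chromosome 1 and 3.38 on chromosome 6. Among sites with scores of at least 5 the shares on chromosome 1 were 14.4% and 10.3% (Fisher's exact test, p = 0.305), which missed the threshold. No other chromosome passed; the X chromosome, with 1.10% against 4.58%, had an adjusted p of 0.125 (Fisher's exact test).

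**Figure D4:**
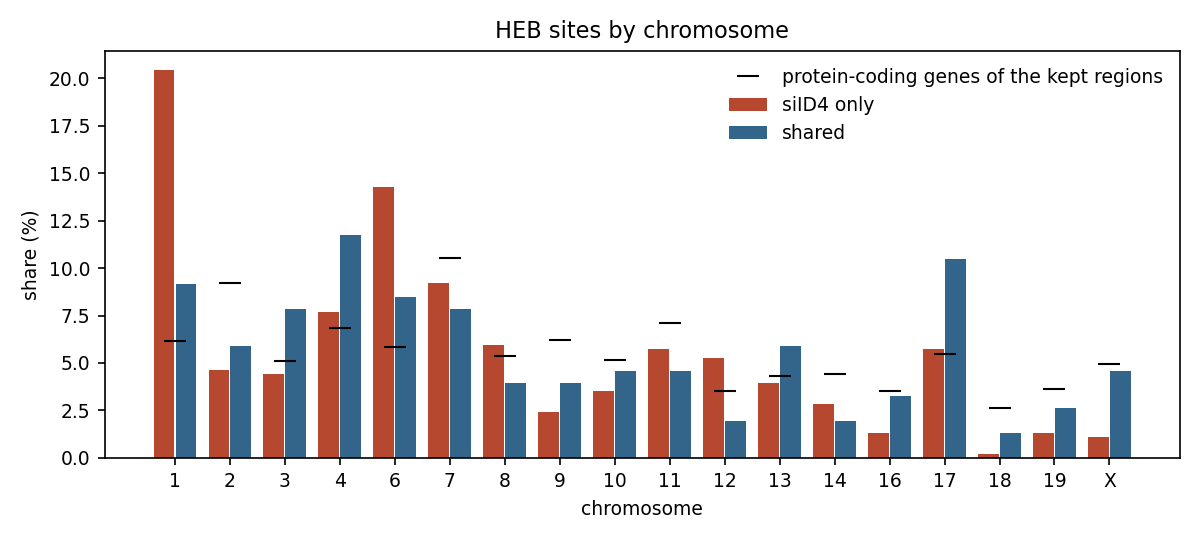
Share of siID4-only sites, of shared sites and, as black marks, of protein-coding genes (%) on each chromosome kept by the rule. The siID4-only share on chromosome 1 is 20.4%, against 9.15% of shared sites and 6.17% of genes.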

How the data were processed

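HEB immunoprecipitation was followed by sequencing in the libraries named above. The authors deposited 1 list of called peak summits per siRNA, with a score that is taken here as −log10 of a q-value. No label names that unit: it is taken from the layout of the lists and their lowest scores, 1.31 (siID4) and 1.32 (siNT), which lie just above 1.30. Per the submitters' processing notes, build mm10 and SAMtools were used. How reads were aligned, how peaks were called and how the libraries were combined is not given in the sources used here.

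Summits were read with pandas 2.3.3 in Python 3.11.15. Genes and starts came from RefSeq tables of GRCm38.p6, which are not complete. Shares carry exact Clopper-Pearson 95% intervals; sets were compared with two-sided Fisher's exact tests (SciPy 1.17.1) adjusted by Benjamini-Hochberg. The planned comparison of E-boxes within 50 bp could not be run, because 1 siID4-only and 6 shared sites had sequence on both sides. Of those, 1 and 1 held CANNTG there.

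Named genes came from the 20 highest sites, protein-coding gene ends, genes with 3 or more sites, up to 4 genes per list, the 5 sites on either side of the limit, Id4 and Tcf12. Sites and lists were chosen with earlier results of these data known. Distances and exclusions were checked on simulated sites. One of the bins with 5 or more sites is not reported here.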

Additional observations from a re-analysis of the deposited data

How the results depend on the processing

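No paired analysis was possible because each siRNA has a single deposited list, with nothing resolved by library; leaving out a replicate was not possible for the same reason. The siID4-only sites numbered 174 with scores of at least 5, 163 with scores above the median and 1126 without the region exclusions, against 455; the other settings gave 340 to 473. The difference at gene ends, -6.68 percentage points, passed the threshold with an siNT distance of 10000 bp (-6.48) and with protein-coding genes only (-6.52). The difference in links to a protein-coding gene, -7.35 points, passed with an siNT distance of 10000 bp (-7.65). Both stood at an adjusted p of 0.0503 (Fisher's exact test) to begin with, and under the other settings neither passed. No difference changed sign under these settings. List genes near a site numbered 11 within 20000 bp and 10 with scores of at least 5, against 17. Of sites with scores of at least 5, 29 of 174 had another within 100000 bp, against 115 of 455; fewer sites give fewer neighbours. The settings without sites in groups, and this last one, were chosen after seeing the data. The planned E-box alternatives were not run. Unknown depth limits every count.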
